A study of Mus musculus with 2 samples.

Results

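Lysosomal hydrolases and membrane proteins were followed as a set of 37 named genes, matched by symbol among the 31053 features that both libraries list. Every one of the 37 symbols matched a single feature. The cells were sorted by flow cytometry as microglia, the resident macrophages of the brain. They were profiled by single-cell RNA sequencing, here with each captured transcript counted by a molecular tag (UMI). The matrices look like droplet output and were treated as such, but the protocol also names a full-length kit. Both libraries came from female C57BL/6 mice aged 3 months, isolated without enzymes and pooled from 3 animals per genotype, so each group is 1 library of pooled animals. The wild-type group is the library titled WT. The other is titled IRF8KO, for a knockout of the transcription factor IRF8, but its genotype entry reads WT and the labels name no allele. It is therefore called the library labelled IRF8KO throughout. With 1 library per group no value has a replicate, no test of genotype exists, and all intervals are 95% intervals of counting error.

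The lysosome is the acidic compartment in which phagocytes break down what they engulf. Soluble hydrolases, each acting on a particular bond in sugars, lipids or proteins, are made in the endoplasmic reticulum and delivered there, many of them by mannose 6-phosphate tags. Small helper proteins present lipids to the enzymes, a proton pump sets the pH, and heavily glycosylated membrane proteins line the wall. Transcription factors of the MiT/TFE family, among them TFEB and TFE3, activate many of these genes together through an E-box motif in their promoters.

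Barcodes entered the comparison with 1000 or more UMIs, 500 or more genes, no more than 10% mitochondrial UMIs and under 2% of UMIs in the neutrophil genes Camp, Ngp, S100a8, S100a9, Lcn2 and Ltf. This left 3304 of 3504 WT barcodes with 18543061 UMIs and 5007 of 5303 barcodes of the library labelled IRF8KO with 18980263 UMIs. The median cell held 3204.5 UMIs and 1682 genes in WT and 2933 UMIs and 1379 genes in the other library, with mitochondrial shares of 2.09% and 3.70%. The neutrophil limit removed 98 cells of the library labelled IRF8KO and none of WT, and no cell lay between 1% and 2%. The libraries shared 5 barcodes. Levels are given as UMIs per 1000000 UMIs (CPM). Irf8 stood at 794 CPM in WT and 669 CPM in the library labelled IRF8KO, which checks nothing where the counted end of the transcript lies outside a deleted part. The 11 microglia markers summed to 34887 CPM in WT and 16349 CPM in the library labelled IRF8KO, and 9 of them were lower there. The 2 with the lowest ratios were Sall1, at 511 and 2.85 CPM, the latter from 54 UMIs, and P2ry12, at 3701 and 625 CPM. Differences were smaller for Tmem119 (1480 and 851 CPM), Siglech (1802 and 962 CPM) and Csf1r (3856 and 2219 CPM). The 2 that were higher were Fcrls (1792 and 1891 CPM) and Olfml3 (1206 and 1268 CPM). UMIs from free RNA were not estimated. Border macrophage markers summed to 265 CPM in WT, of which Stab1 made up 251 CPM, and to 3376 CPM in the library labelled IRF8KO. The 6 of these 11 markers with at least 10 CPM were all higher there. Cd163, Lyve1, F13a1, Ms4a7, Clec12a and Cd209f had no WT UMI, and Cd209f had none in either library. Of the others under 10 CPM, Lyve1 had only 2 UMIs in the library labelled IRF8KO, and Cd163 and Cbr2 reached 9.11 and 6.11 CPM there. Folr2 went the other way, with 32 UMIs in WT against 4. The largest parts of the 3376 CPM were Pf4 (1462 CPM), Ms4a7 (649 CPM), Stab1 (524 CPM) and Mrc1 (503 CPM). The part of these cell-identity differences in the lysosomal values was not tested.

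The lysosomal genes as a set stayed close to the bulk of the transcriptome, while a few members lay farther from it. Cd63, a tetraspanin of late endosomes and lysosomes, was 3.21-fold higher in the library labelled IRF8KO. Psap, the precursor of the saposins, was 2.50-fold lower, Tfeb 2.47-fold lower, Lgmn 2.18-fold lower and Npc1 2.15-fold lower. These folds are ratios of CPM. Relative to the median ratio of all genes tested, Cd63 was 3.89-fold higher and Psap 2.06-fold, Tfeb 2.04-fold, Lgmn 1.79-fold and Npc1 1.78-fold lower. The hydrolases that break down sugars, sulfate esters and acyl bonds mostly kept their place among all genes, with Hexa and Ids as the lowest of them and Neu1 as the highest.

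Summed over the 37 genes, UMIs went from 334844 in WT to 256083 in the library labelled IRF8KO, or from 1.81% to 1.35% of all UMIs. The log2 ratio of the summed CPM was -0.42 (-0.43 to -0.41). Most of this decrease came from 3 genes. Lgmn differed by -1762 CPM, Psap by -1310 CPM and Laptm5 by -718 CPM, while Cd63 gained 768 CPM. Without Lgmn, Psap and Laptm5 the sums were 9966 (WT) and 9191 CPM, a log2 ratio of -0.12. Without Cd63 as well it was -0.25.

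The ratio of a gene depends on what the other genes of its library do. In the library labelled IRF8KO, Apoe alone reached 88321 CPM, against 478 CPM in WT. The median log2 ratio of the 8859 genes that reached 10 CPM in either library was -0.28, and the value of each gene less this median is called its relative log2 ratio. Of the 37 lysosomal genes, 36 passed the minimum of 10 CPM, and Galns did not. Their median log2 ratio was -0.22 and their median relative log2 ratio 0.06. CPM were lower in the library labelled IRF8KO for 29 of the 36 (80.6%), against 74.9% of all genes tested. Relative to the median gene, 19 were above and 17 below, against 50% of all genes above by construction.

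Few members left the range of ordinary genes. A gene is counted as past 2-fold when its relative log2 ratio is at least 1 or at most -1. In the higher direction 1 of 36 was past 2-fold (2.78%), Cd63, against 7.53% of all genes. In the lower direction 2 of 36 were (5.56%), Psap and Tfeb, against 5.94% of all genes. In cells of 2000 to 6000 UMIs neither was past the limit, at -0.99 and -0.96. Tfeb also missed it with equal weight for each cell (-0.90) and with a pseudocount of 1 CPM (-0.98), and was under a minimum of 50 CPM. These shares are near or under the background, so the set as a whole did not stand out. Psap at -1.04 and Tfeb at -1.03 lay just past this limit, and Lgmn at -0.84 and Npc1 at -0.83 did not reach it. The middle 50% of all genes ran from -0.27 to 0.28 on the same scale, and 22 of the 36 members lay within it.

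**Figure D1:**
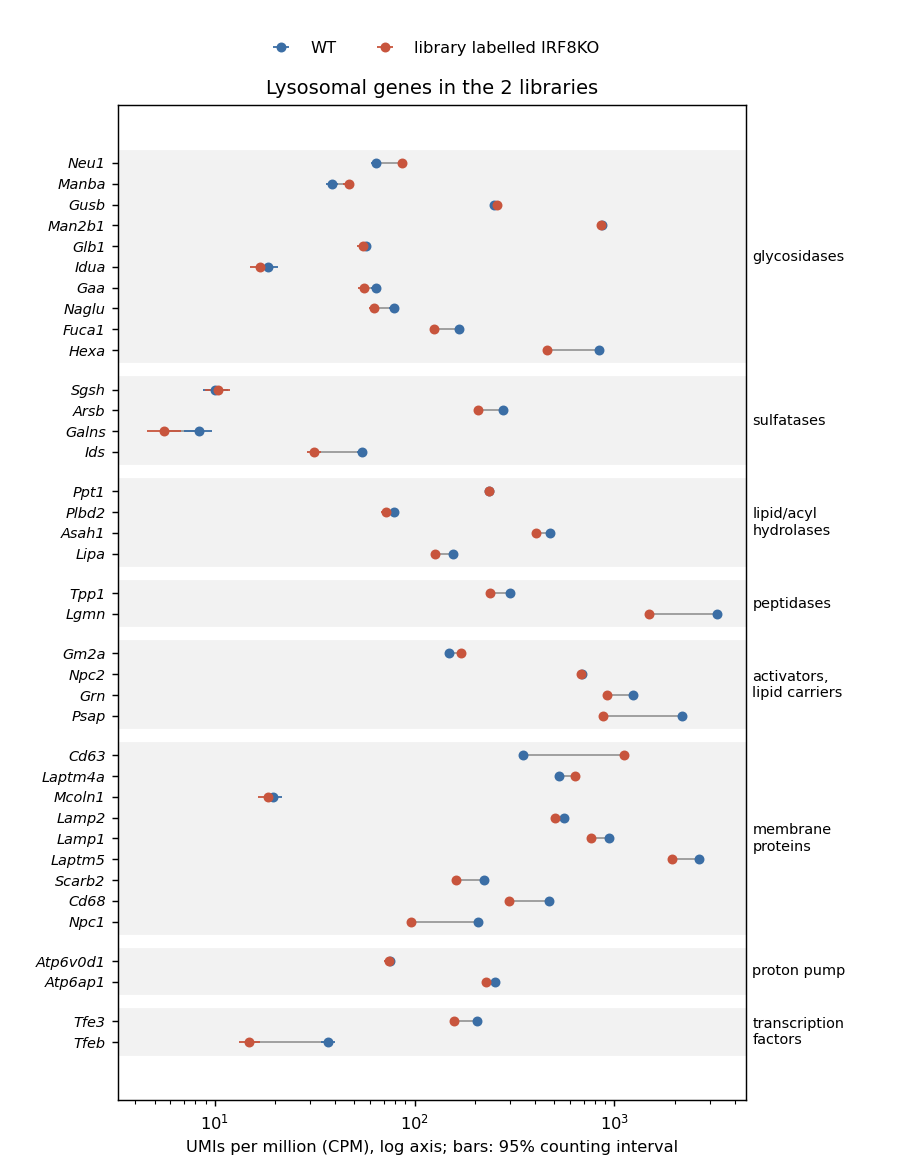
Level of each of the 37 lysosomal genes in CPM on a log axis, in WT (blue) and in the library labelled IRF8KO (red), with 95% counting intervals and 1 library per group. Cd63 is the member whose red point lies farthest to the right of its blue point (348 against 1117 CPM), and Lgmn, Psap, Npc1 and Tfeb lie farthest to the left.

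**Figure D2:**
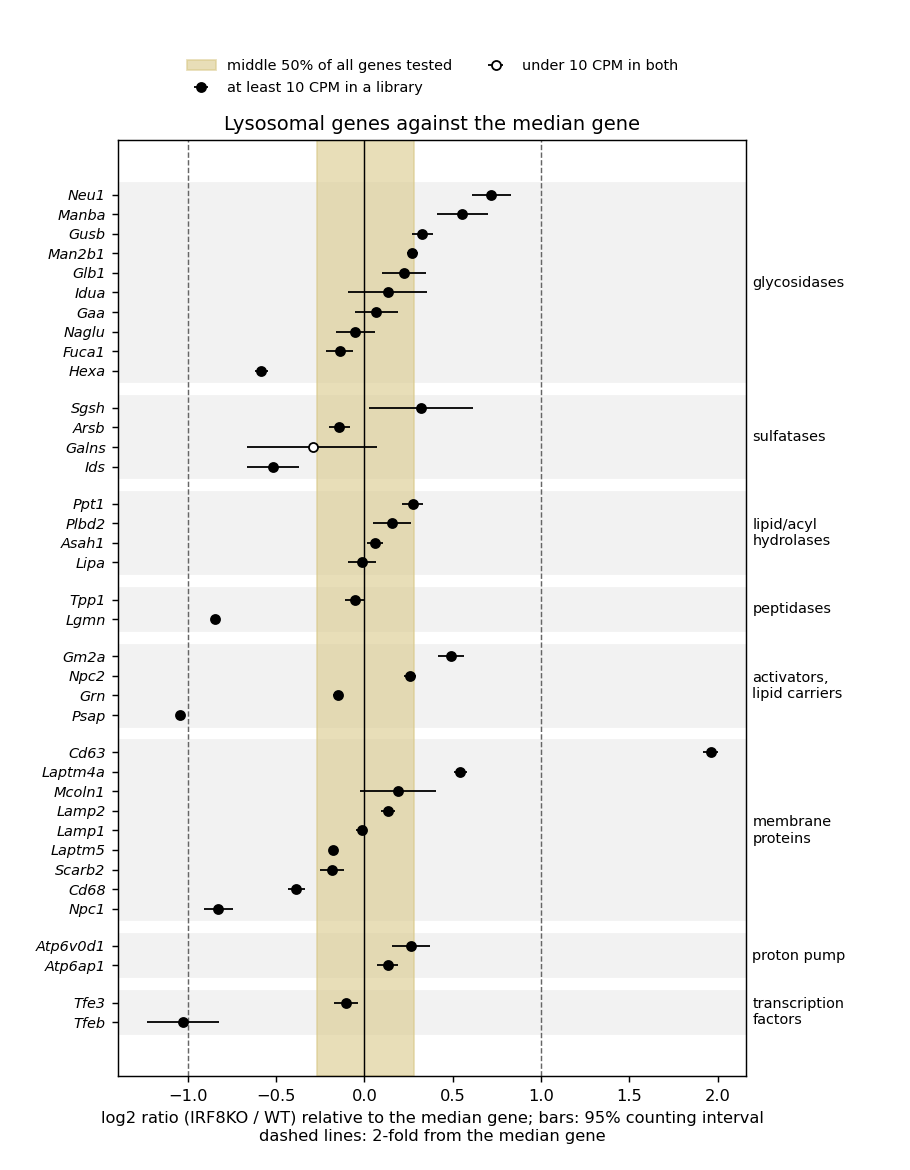
Log2 ratio of each lysosomal gene (IRF8KO over WT) less that of the median gene, by class, with 95% counting intervals; the shaded band holds the middle 50% of all genes tested and the dashed lines mark 2-fold. Of the 36 members with at least 10 CPM, Cd63 at 1.96 lies past the upper line and Psap and Tfeb past the lower one.

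Glycosidases take sugars off glycoproteins, glycolipids and glycosaminoglycans. All 10 were tested, with a median relative log2 ratio of 0.18, and 7 lay above the median gene. Neu1, the lysosomal sialidase, gave 1185 UMIs (63.9 CPM, 60.3 to 67.7) in WT and 1645 (86.7 CPM, 82.5 to 91) in the library labelled IRF8KO. It was the highest of the class, with a log2 ratio of 0.44 (0.33 to 0.55) and a relative one of 0.72. Manba, the β-mannosidase, followed with 38.6 and 46.7 CPM and a relative value of 0.55.

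Hexa, which encodes the α subunit of β-hexosaminidase, was the lowest glycosidase. It gave 15484 UMIs (835 CPM, 822 to 848) in WT and 8715 (459 CPM, 450 to 469) in the library labelled IRF8KO, so the 2 intervals lay far apart. Its log2 ratio was -0.86 (-0.90 to -0.82) and its relative value -0.58. Gm2a, the activator protein that presents GM2 ganglioside to this enzyme, went the other way from Hexa, from 148 to 171 CPM, with a relative value of 0.49 (0.42 to 0.56).

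The remaining glycosidases lay nearer to the median gene. Man2b1, the lysosomal α-mannosidase, stood at 865 CPM in WT and 860 CPM in the library labelled IRF8KO, with overlapping intervals. Gusb, the β-glucuronidase, stood at 249 and 257 CPM, again with overlapping intervals. Glb1 (β-galactosidase) had 57.2 and 55.1 CPM and Idua (α-L-iduronidase) 18.6 and 16.8 CPM. For Gaa, the acid α-glucosidase of glycogen, the levels were 64.3 and 55.5 CPM. Naglu, which acts on heparan sulfate, had 78.6 and 62.5 CPM, and Fuca1, the α-fucosidase, 167 and 125 CPM. The intervals of Naglu and Fuca1 did not overlap between the libraries, with log2 ratios of -0.33 and -0.42. The relative values of these 7 genes ran from -0.14 for Fuca1 to 0.33 for Gusb.

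Sulfatases remove sulfate groups, mainly from glycosaminoglycans. Ids, the iduronate 2-sulfatase, gave 54.6 CPM (51.3 to 58.1) in WT and 31.4 CPM (28.9 to 34.0) in the library labelled IRF8KO. It was the lowest of the class, with a log2 ratio of -0.80 (-0.95 to -0.65) and a relative value of -0.52. Arsb, which removes sulfate from dermatan sulfate, had 278 and 208 CPM and a relative value of -0.14. Sgsh, the heparan N-sulfatase, was the highest at 10.1 and 10.4 CPM, where the interval of its log2 ratio, -0.25 to 0.34, included 0. Galns had 154 and 106 UMIs, or 8.30 and 5.58 CPM, under the minimum in both libraries. At that depth the interval of its relative value, -0.66 to 0.07, included 0.

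The 4 lipid and acyl hydrolases moved least among the hydrolases, with relative values from -0.02 to 0.27. Ppt1, the thioesterase that removes palmitate from proteins, was the highest of them at 236 CPM in WT and 234 CPM in the library labelled IRF8KO. Asah1, the acid ceramidase, had 474 and 407 CPM, and Plbd2, a phospholipase B-like protein, 78.5 and 72.0 CPM. Lipa, the acid lipase that hydrolyses cholesteryl esters and triglycerides, was the lowest of them at 155 and 126 CPM, and its relative value of -0.02 had an interval from -0.09 to 0.06.

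The 2 peptidases differed from each other. Lgmn encodes legumain, the asparaginyl endopeptidase that also processes other lysosomal proteases. It gave 60405 UMIs (3258 CPM, 3232 to 3284) in WT and 28382 (1495 CPM, 1478 to 1513) in the library labelled IRF8KO. The WT level was above the other by 2.18-fold, a log2 ratio of -1.12 (-1.14 to -1.10) and a relative value of -0.84. Tpp1, a tripeptidyl peptidase, had 299 and 238 CPM and a relative value of -0.05 (-0.11 to 0.00).

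Soluble activators and lipid carriers showed the widest spread after the membrane proteins. Psap gave 40489 UMIs (2184 CPM, 2162 to 2205) in WT and 16575 (873 CPM, 860 to 887) in the library labelled IRF8KO. Its log2 ratio was -1.32 (-1.35 to -1.30), the lowest of the 36, and its relative value -1.04 (-1.07 to -1.02). Grn, which encodes progranulin, a partner that travels to the lysosome with prosaposin, had 1233 and 914 CPM and a relative value of -0.15. Npc2, which lifts cholesterol out of the lumen, stood at 690 and 680 CPM, with overlapping intervals.

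Npc1, the membrane protein that takes cholesterol over from Npc2, was lower. It gave 3835 UMIs (207 CPM, 200 to 213) in WT and 1822 (96.0 CPM, 91.6 to 101) in the library labelled IRF8KO. Its log2 ratio was -1.11 (-1.19 to -1.03) and its relative value -0.83 (-0.91 to -0.75), against 0.26 for Npc2. Rmc1 and Gm15956 overlap Npc1 on the other strand, and how the counting used strand is not given in the sources used here.

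Cd63 stood alone among the 9 membrane proteins. It gave 6458 UMIs (348 CPM, 340 to 357) in WT and 21192 (1117 CPM, 1102 to 1132) in the library labelled IRF8KO. Its log2 ratio of 1.68 (1.64 to 1.72) lay at the 96.9 percentile of the 8859 genes, and its relative value was 1.96. Laptm4a, a small transmembrane protein of late endosomes and lysosomes, was the next highest of the class at 528 and 634 CPM, with a relative value of 0.54.

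The structural proteins of the lysosomal wall changed little. Lamp1 had 937 CPM in WT and 764 CPM in the library labelled IRF8KO, and Lamp2 had 560 and 506 CPM. Their relative values were -0.01 (-0.05 to 0.02) and 0.13 (0.09 to 0.17). Scarb2, the receptor that carries β-glucocerebrosidase to the lysosome, had 223 and 161 CPM and a relative value of -0.19. Laptm5, a lysosomal protein of blood-lineage cells, had 2650 and 1933 CPM and a relative value of -0.18. Cd68, the macrophage sialomucin used as a histological marker of phagocytic cells, had 472 CPM (462 to 482) and 298 CPM (290 to 306). Its log2 ratio of -0.67 was a relative value of -0.39, so Cd68 and Cd63 lay on opposite sides of the median gene. Mcoln1, the calcium channel TRPML1, had 19.6 and 18.4 CPM with overlapping intervals.

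The 2 proton pump members, Atp6ap1 and Atp6v0d1, had relative values of 0.13 and 0.26. Atp6ap1, an accessory subunit, stood at 251 and 227 CPM, and Atp6v0d1, a subunit of the membrane sector, at 75.3 and 74.5 CPM.

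Both transcription factors were below the median gene. Tfeb gave 684 UMIs (36.9 CPM, 34.2 to 39.8) in WT and 283 (14.9 CPM, 13.2 to 16.8) in the library labelled IRF8KO. Its log2 ratio was -1.31 (-1.51 to -1.10) and its relative value -1.03, with an interval from -1.23 to -0.82 that spans the 2-fold limit. Tfe3 had 206 and 158 CPM and a relative value of -0.10 (-0.17 to -0.03).

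Promoters were read next, since these factors bind the E-box CACGTG and, more strongly, longer forms such as TCACGTGA and the same with G before and C after it, all of which read the same on both strands. RefSeq promoter windows on GRCm38.p6, from 250 bases before to 50 after each annotated start, were found for 33 of the 37 genes. CACGTG occurred in 8 of these 33 genes (24.2%), against 8.09% of all 27025 genes with a window and 26 of 83 other lysosomal genes (31.3%). TCACGTGA, which contains CACGTG, occurred in Atp6v0d1 and Mcoln1, 6.06% against 1.12% of all genes and 16.9% of the other lysosomal genes, and the longest form in none, against 0.37% of all genes. A site for each gene is printed, because these are the places in the set where the letters of the motif stand; capitals mark the motif and the flanks are in lower case, 5′ to 3′ on the strand of the gene. The Lamp1 line holds the 80 bases before its start, chr8:13159081-13159160 on the + strand, with 4 copies.
Atp6v0d1: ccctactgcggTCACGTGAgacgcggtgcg
Mcoln1: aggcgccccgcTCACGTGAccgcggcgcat
Gaa: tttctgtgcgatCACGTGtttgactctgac
Glb1: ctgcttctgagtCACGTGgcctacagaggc
Naglu: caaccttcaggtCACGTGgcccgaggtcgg
Sgsh: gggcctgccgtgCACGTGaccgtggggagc
Lgmn: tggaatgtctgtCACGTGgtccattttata
Lamp1: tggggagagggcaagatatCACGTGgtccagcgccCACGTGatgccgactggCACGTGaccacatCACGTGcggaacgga
The windows of 30 bases lie at chr8:105566050-105566079 (−) for Atp6v0d1, chr8:3500462-3500491 (+) for Mcoln1, chr11:119267811-119267840 (+) for Gaa and chr9:114401018-114401047 (+) for Glb1. Those of Naglu, Sgsh and Lgmn lie at chr11:101070009-101070038 (+), chr11:119355522-119355551 (−) and chr12:102439124-102439153 (−), the last before the second of the 2 starts that RefSeq gives Lgmn.

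Of these 8 genes, 7 had relative log2 ratios between -0.05 and 0.32, close to the median gene, and Lgmn stood at -0.84. Their median was 0.13, against -0.02 for the 25 genes with a window but no CACGTG. Mcoln1 and Lamp1 carried more than 1 copy and had relative values of 0.19 and -0.01. The ETS and IRF composite element (GGAA, any 2 bases, GAAA), searched on both strands, occurred in Cd68 and Scarb2 (6.06% of the 33 genes, against 3.16% of all genes), and the IRF element (GAAA, any 2 bases, GAAA) in Lamp1 (3.03% against 3.99%). A match is a description of letters and not evidence of binding.

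Cd63, the member farthest above the median gene, had none of these motifs in its window. Psap and Tfeb had none either, and 25 of the 33 genes had no CACGTG, so the absence is not particular to Cd63. The RefSeq start of this window lies inside Cd63 as GENCODE places the gene (128900989 to 128912822), and no other window of Cd63 was searched. The 250 bases before this start, chr10:128909095-128909344 on the + strand, are shown because no other member moved as far up.
Cd63: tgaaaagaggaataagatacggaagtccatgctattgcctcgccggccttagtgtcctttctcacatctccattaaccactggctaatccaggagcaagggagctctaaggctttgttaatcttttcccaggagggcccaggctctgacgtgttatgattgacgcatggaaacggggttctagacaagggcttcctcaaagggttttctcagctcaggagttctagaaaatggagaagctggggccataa

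Per cell, the lysosomal share of UMIs was lower in the library labelled IRF8KO, with wide overlap. After each cell was thinned to 2000 UMIs, which left out 285 shallower WT cells and 498 of the library labelled IRF8KO, the median share was 1.75% in 3019 WT cells (quartiles 1.5 and 2). It was 1.30% in 4509 cells of the library labelled IRF8KO (quartiles 1.10 and 1.55). The 5th percentile of WT, 1.2%, had 31.1% of those cells under it, and the 95th, 2.4%, had 0.33% over it. Without thinning the medians were 1.76% and 1.33%. The WT 5th percentile was then 1.30%, and 45.4% of the cells of the library labelled IRF8KO were under it. In thinned cells without Lgmn, Laptm5 and Psap, the 3 members with most UMIs, the medians were 0.95% and 0.90%. Then 7.94% of the cells of the library labelled IRF8KO were under the WT 5th percentile. Free RNA in the droplets can add to these shares, and its part was not tested.

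Counts per cell are given for the 4 members with the largest difference in CPM. In thinned cells, the median Lgmn count was 6 UMIs in WT (quartiles 4 and 8) and 3 in the library labelled IRF8KO (quartiles 2 and 4). For Psap the medians were 4 (quartiles 2 and 5) and 1 (quartiles 1 and 3). For Cd63 they were 0 (quartiles 0 and 1) and 2 (quartiles 1 and 3). For each of these 3 genes the bulk of the cells was shifted. Laptm5 had medians of 5 and 4 UMIs.

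**Figure D3:**
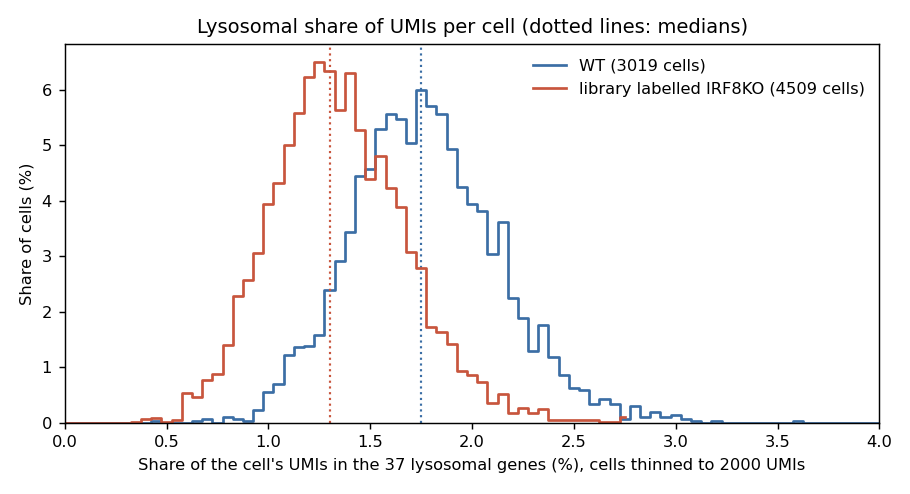
Distribution over cells of the share of UMIs in the 37 lysosomal genes, with each cell thinned to 2000 UMIs; dotted lines are the medians. The curve of the library labelled IRF8KO lies to the left of the WT curve (medians 1.30% and 1.75%) and the 2 overlap widely.

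Cd63 lay above, and Psap, Lgmn and Npc1 below, the median gene at each depth. In cells of 1000 to 2000, 2000 to 4000, 4000 to 8000 and 8000 or more UMIs, bins chosen after seeing the data, the relative value of Cd63 was 1.40, 2.05, 1.88 and 1.87. Psap gave -1.27, -1.0, -0.94 and -1.05, and Lgmn -1.06, -0.81, -0.91 and -0.92. Npc1 gave -1.49, -0.78, -0.85 and -0.82. Tfeb gave -0.28 in the shallowest bin, with an interval from -1.39 to 0.87, and -0.94, -0.94 and -1.05 in the others. The median of the members ran from -0.12 to 0.09 across the bins.

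To see how the genes varied within each library, cells of both libraries were clustered together without the members, the other lysosomal genes named below and mitochondrial genes. The 7 clusters each came almost wholly from 1 library. Clusters 0, 1 and 2 held 3182, 64 and 59 cells, nearly all WT. Clusters 3, 4, 5 and 6 held 2526, 2370, 34 and 76 cells, nearly all from the library labelled IRF8KO. Among the leading genes were Sall1 and Dlgap1 in cluster 0, Ttr, Spp1, Lgals3, Ccl3 and Ccl4 in cluster 2, Lgals1, Ms4a7 and Cxcl2 in cluster 3, Clec12a, Mrc1 and Apoc1 in cluster 4 and Cxcl10 and Rsad2 in cluster 6. No cluster is given a cell type name, and a cluster of 1 library may be a feature of that library.

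The lysosomal share of UMIs was 1.79% in cluster 0, 1.32% in cluster 3, 1.38% in cluster 4 and 1.31% in cluster 6, with 1.58% (1.51 to 1.66) in the 34 cells of cluster 5, between cluster 0 and the other 3. Clusters 1 and 2, small groups of WT cells, were higher at 2.86% and 2.13%. Cluster 1 was shallow, with a median of 1265 UMIs per cell.

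Cd63 was not at a single level in either library. It stood at 324 CPM (316 to 332) in cluster 0 and at 862 CPM (800 to 927) in cluster 2, the WT cells led by Spp1 and Ccl4. In the library labelled IRF8KO it stood at 1240 CPM (1219 to 1262) in cluster 3, 951 CPM (930 to 973) in cluster 4 and 1126 CPM (1010 to 1253) in cluster 6. Summed border macrophage markers were 266 and 235 CPM in clusters 0 and 2 and 3742, 2927 and 2852 CPM in clusters 3, 4 and 6. In WT this sum is mostly Stab1, and the part of the other markers in the Cd63 levels of the clusters was not tested.

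Cd68 separated the large clusters 3 and 4, at 355 CPM (344 to 367) in cluster 3 and 217 CPM (207 to 228) in cluster 4, against 456 CPM in cluster 0 and 778 CPM (719 to 840) in cluster 2. Gusb was also higher in cluster 3 (289 CPM) than in cluster 4 (215 CPM), but its cluster 3 level lay above the 246 CPM of cluster 0. Lgmn and Arsb had the reverse order of clusters 3 and 4, at 1326 and 1713 CPM for Lgmn and 171 and 257 CPM for Arsb. Median depth also differed, at 3286.5 UMIs per cell in cluster 3 and 2594.5 in cluster 4.

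Psap and Hexa were low in clusters 3 to 6. Psap ran from 852 to 944 CPM over clusters 3 to 6 and from 2161 to 2858 CPM over clusters 0 to 2, and Hexa from 321 to 478 CPM and from 819 to 1195 CPM, without overlap between the libraries. Cluster 5 holds fewer than the 50 cells required for description and was looked at after its values were seen. Its 34 cells had 35311 CPM of microglia markers, close to the 34733 CPM of cluster 0, and 6218 CPM of Apoe. In these cells Lgmn reached 2877 CPM (2580 to 3199) and Laptm5 2675 CPM (2388 to 2986), near the levels of cluster 0. Tfeb had 6 UMIs, 50.6 CPM (18.6 to 110), an interval that overlaps those of clusters 0, 4 and 6. Cd63 was 515 CPM (394 to 661). Psap, at 852 CPM (694 to 1035), and Hexa, at 321 CPM (227 to 440), had intervals that overlap those of cluster 6.

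**Figure D4:**
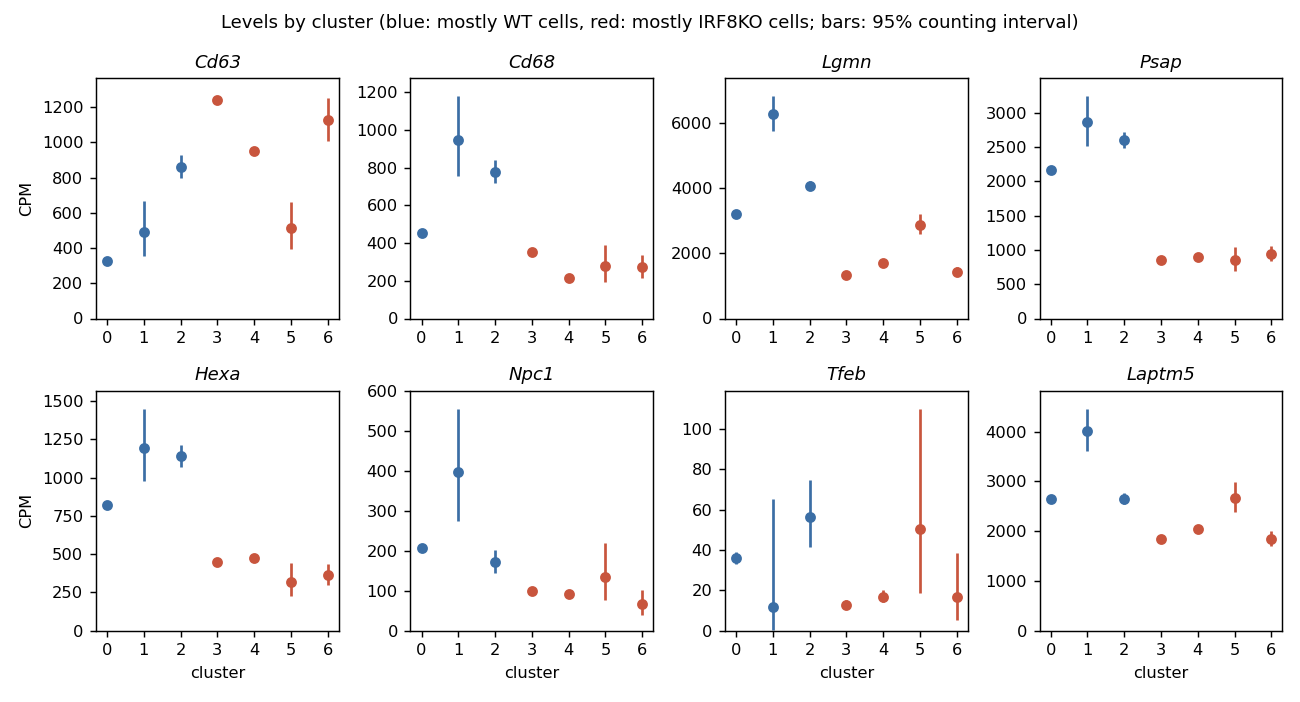
Level of 8 lysosomal genes in CPM in the 7 clusters, with 95% counting intervals; clusters 0 to 2 are nearly all WT cells (blue) and clusters 3 to 6 nearly all cells of the library labelled IRF8KO (red), and the clustering did not use these genes. Psap and Hexa separate the 2 libraries in every cluster, while Cd63 is at 862 CPM in the small WT cluster 2 and Lgmn at 2877 CPM in the small cluster 5.

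Other genes of the lysosome were counted from lists of 110 matched genes, of which 96 had at least 10 CPM in a library. Of these, 5 were past 2-fold higher (5.21%, against 7.53% of all genes) and 8 lower (8.33%, against 5.94%), with a median relative log2 ratio of -0.03. Among other hydrolases, 6 of 19 lay above the median gene, 1 was past 2-fold higher and 1 lower (5.26% each). Galc, which cleaves galactosylceramide with the help of a saposin made from Psap, had 38.3 CPM in WT and 123 CPM in the library labelled IRF8KO, a relative value of 1.96. Rnaset2a, a ribonuclease, had a relative value of -1.14, which is uncertain because Rnaset2b is a near-identical copy. Smpd1, the acid sphingomyelinase, stood at -0.86.

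Among 21 other membrane proteins tested, 2 were past 2-fold higher (9.52%, against 7.53% of all genes) and 1 lower (4.76%, against 5.94%). Hgsnat, the acetyltransferase of heparan sulfate breakdown, was the highest, with 23.0 and 98.4 CPM and a relative value of 2.38. Tpcn2, a two-pore channel, had a relative value of 1.41, and Slc29a3, a nucleoside transporter, -1.55 (492 and 139 CPM). Of 14 other proton pump subunits, 10 lay above the median gene and 1 was past 2-fold lower (7.14%, against 5.94% of all genes). That 1 was Atp6v0a2, an isoform of the a subunit, with 138 and 14.6 CPM and a relative value of -2.96. Atp6v1e1 and Atp6v0e stood at 0.69 and 0.65.

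Of 16 genes that sort proteins to the lysosome, 1 was past 2-fold higher (6.25%, against 7.53% of all genes) and 2 lower (12.5%, against 5.94%). Sorl1 had a relative value of 1.59 and Ap1b1 -1.14. Sort1, the sorting receptor sortilin that carries prosaposin and progranulin, had 124 and 42.1 CPM and a relative value of -1.28. Of 16 MiT/TFE genes and their regulators, Tfec was past 2-fold higher (6.25%, against 7.53% of all genes) and Rptor lower (6.25%, against 5.94%). Tfec, another MiT/TFE factor, had 10 WT UMIs and 362 in the library labelled IRF8KO, 0.54 and 19.1 CPM, a relative value of 5.42 (4.53 to 6.50). Rptor, the mTORC1 subunit raptor, stood at -1.5 and Fnip2, a partner of folliculin, at 0.85. Of 10 cathepsins, none was past 2-fold higher (against 7.53% of all genes) and 2 were lower (20%, against 5.94%). These were Ctsh at -4.24 (898 and 39.3 CPM) and Ctsf at -1.07. Ctss stood at -0.60.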

How the data were processed

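Each library has 1 deposited matrix of raw UMI counts by gene and barcode. Per the file headers it comes from software 3.1.0 (format 2), and the submitters' processing notes name bcl2fastq, Cell Ranger 3.1, Scanpy and mm10. How barcodes were chosen is not given in the sources used here. In the shallowest barcode there were 500 UMIs (WT) or 501 (the library labelled IRF8KO). The protocol also names a full-length kit, whereas the matrices look like droplet output.

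UMIs were summed over the cells used and scaled to UMIs per 1000000 (CPM). Intervals are exact Poisson for CPM and exact conditional binomial for ratios, at 95%; the interval of a list's median is the median of its members' bounds. A gene with no UMI takes a floor of 3 counts over the group. Doublets were not removed: scrublet in scanpy 1.11.5 marked no WT cell and 3 cells of the library labelled IRF8KO (0.0588%), too few for a working call, and an alternative left out the 87 and 208 cells with the highest scores. Leiden clustering (resolution 0.5) ran on 15 neighbours in 30 principal components of 2000 variable genes, with no correction for library. A list of 11 border macrophage, 11 microglia and further cell type markers was used for description. Genes were named by rule: in each class the highest and lowest ratio and those past 2-fold, and of each other list the 3 farthest from the median gene; the remaining members are given in short. The members and lists were chosen with earlier results of these data known. Positions are from GENCODE M21 (GRCm38), promoter sequences from RefSeq on GRCm38.p6. Of 31053 gene IDs, 31011 matched GENCODE. The level of Pip4p1, on a list by symbol, was not analysed here, but the promoter counts of the other lysosomal genes include it. The calculation was tested on simulated data. TMM factors came from edgeR 4.0.16.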

Additional observations from a re-analysis of the deposited data

Results flagged for a closer look

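These values lie in cells and barcodes that the comparison left out, and each is above the counting intervals of both libraries' cells; 37 genes were looked at in each of 3 sets, so some would pass by chance. In the 98 cells with 2% or more neutrophil gene UMIs, Galns stood at 72.4 CPM (55.4 to 93, from 61 UMIs), against 8.30 CPM in WT and 5.58 CPM in the cells used of the library labelled IRF8KO. Galns is thus the member with the fewest UMIs in the cells compared and had more than 10 CPM only in the cells left out. Atp6v0d1 stood at 117 CPM (95.5 to 143) in the same cells, against 75.3 and 74.5 CPM. In the 200 WT barcodes that failed the filter, Man2b1 had 1251 CPM, Cd68 632 CPM and Npc1 300.5 CPM. In the 198 barcodes of the library labelled IRF8KO that failed it, Man2b1 had 1298 CPM, Asah1 623 CPM and Lamp2 709 CPM.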

How the results depend on the processing

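No paired analysis was possible because each group has 1 library, and none could be left out. The alternative without the 5 barcodes found in both libraries was chosen after seeing the data. Scaling moved the summed log2 ratio to -0.17 (TMM), -0.27 (totals without mitochondrial and ribosomal protein genes) and -0.35 (without the 10 most abundant genes), and the members' median to 0.038 and -0.066 under the first 2; these move all genes, by 0.26 and 0.15, and leave relative values nearly as they were. The summed ratio was -0.41 both when every cell weighed the same and under the stricter filter, -0.47 with all kept cells and -0.40 in cells of 2000 to 6000 UMIs.

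The count of members past 2-fold lower went from 2 to 1 with equal weight for each cell, with a minimum of 50 CPM and with a pseudocount of 1 CPM, where Psap stayed and Tfeb did not, and to 0 in cells of 2000 to 6000 UMIs. Cd63 was past 2-fold higher in all 13 alternatives. Class medians relative to all genes moved as follows: membrane proteins to -0.062 (equal weight), -0.075 (no minimum) and -0.095 (50 CPM); peptidases to -0.49 (all kept cells) and -0.51 (no minimum); activators to 0.016 (all kept cells), 0.089 (2000 to 6000 UMIs) and -0.0066 (no minimum); sulfatases to -0.28 (no minimum) and -0.33 (50 CPM); and transcription factors to -0.10 (50 CPM, where Tfe3 alone is left). The WT median share per cell was 1.80% thinned to 1000 UMIs, 1.76% without thinning and 0.95% without the 3 members with most UMIs, where that of the library labelled IRF8KO was 0.90%. The cause of these shifts was not tested, apart from fewer or more genes under another minimum. Of 463 single-gene values, 35 left their counting interval, and 2 changed sign, both of Asah1.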

Other observations

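Several genes that act in 1 pathway were far apart in ratio. In the breakdown of heparan sulfate, Hgsnat had a relative log2 ratio of 2.38 and Ids -0.52, while Idua, Naglu, Sgsh and Gusb lay between -0.05 and 0.33. In the breakdown of sphingolipids, Galc stood at 1.96, Gm2a at 0.49 and Asah1 at 0.06, against -1.04 for Psap, -0.86 for Smpd1 and -0.58 for Hexa. These genes were grouped after their values were seen, and the groups were not tested.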
